A study of Mus musculus with 12 samples.

Results

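Aminoacyl-tRNA synthetases are the enzymes that join each amino acid to its transfer RNA. The 36 genes described here were listed by name, under their older mouse symbols, and comprise 20 genes for the cytosolic enzymes and 16 for the mitochondrial ones. All 36 were found among the 24054 genes of the deposited tables. The rule that lists them uses no measured value, but the list was drawn up with earlier results of these data known. They were followed in RNA sequencing of 2 epithelial cell types, basal and luminal, that had been sorted from the prostate of C57BL/6 mice. The 4 groups were basal cells at 3 months (young), basal cells at 24 months (old), luminal cells at 3 months and luminal cells at 24 months. No genotype or treatment beyond strain and age is given. Each group held 3 libraries, and the cells of 2 mice of equal age went into each library. The p-values measure the spread between these libraries, which holds the counting error of each library as well as differences between pools of mice. How the cells were gated for sorting is not given in the sources used here.

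Each synthetase recognises 1 amino acid, activates it with ATP and transfers it to the matching tRNA, which then enters the ribosome. Most amino acids have a cytosolic and a separate mitochondrial enzyme, both encoded in the nucleus. Gars and Kars are exceptions, since 1 gene supplies both compartments with the glycine and the lysine enzyme. In the cytosol 8 of the listed genes (Dars, Eprs, Iars, Kars, Lars, Mars, Qars and Rars) encode enzymes of a multisynthetase complex that is held together by the scaffold proteins Aimp1, Aimp2 and Eef1e1. Many cytosolic synthetase genes are known targets of Atf4, the transcription factor of the amino acid and integrated stress responses, which binds C/EBP-ATF elements. Wars, the tryptophan enzyme, is also known as an interferon-inducible gene. The prostate luminal cell is a secretory cell that makes large amounts of protein, and the basal cell lies beneath it on the basement membrane.

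Promoter sequences from RefSeq (GRCm38.p6) were at hand for 27 of the 36 genes, each reaching 250 bases before and 50 bases after the transcription start. They were searched on both strands for the C/EBP-ATF core TGATGNAA, whose reverse complement is TTNCATCA. This core was chosen with results of these data known. The core was present in 5 of the 13 cytosolic genes with a sequence (38.5%), in 0 of the 14 mitochondrial genes, and in 4.51% of the 27025 genes of the whole table. The 5 genes were Aars, Gars, Iars, Tars and Yars. In the age comparison of basal cells below, 2 of the 5 rose (Gars and Tars) and 3 were not called, where 1.01% of all tested genes rose. Cars, which also rose there, had no sequence to search. A link between the core and the rise was not tested. For the 4 with a single match, the window of 30 bases around it is printed 5′ to 3′ on the strand of the gene, with the core in capitals.
Gars, chr6:55037960-55037989, plus strand: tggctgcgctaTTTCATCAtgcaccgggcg
Tars, chr15:11399655-11399684, minus strand: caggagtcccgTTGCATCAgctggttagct
Iars, chr13:49682126-49682155, plus strand: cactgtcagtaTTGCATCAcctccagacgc
Yars, chr4:129189895-129189924, plus strand: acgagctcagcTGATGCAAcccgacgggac
The match lay 30 bases before the start in Gars and 15 before it in Tars. In Iars and Yars it began 7 and 3 bases after the start. The core reads in the reverse orientation in every window except that of Yars. Cars, Hars, Lars, Nars, Rars, Vars, Wars, Hars2 and Pars2 have no entry. The interferon response core TTCNNTTTC, with the reverse complement GAAANNGAA, was found in the Qars promoter alone among the 27, against 9.76% of all genes in the table. A match describes letters in a window and does not show that a factor binds there.

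The 12 libraries held 20012691 to 27663450 counts, of which the 36 genes took 0.239% to 0.440%. An estimated 16 to 73 reads came from each distinct fragment, which left 378951 to 1443424 distinct fragments per library. Young basal libraries held 378951 to 564923 fragments, old basal libraries 669232 to 1443424, young luminal libraries 744442 to 870117 and old luminal libraries 543503 to 728632. The 8 basal markers were all lower and the 8 luminal markers all higher in luminal than in basal cells at both ages, as their labels have it. Transcripts of 6 seminal vesicle genes summed to 127776 to 205610 counts scaled to a common library total (CPM) in luminal libraries and to 778 to 2061 CPM in basal ones. All 7 fibroblast markers together summed to 1249 to 1645 CPM in basal, 193 to 401 in young luminal and 52.4 to 131 in old luminal libraries. The part of either in the results below was not tested. In bulk samples, fewer cells of a type and less RNA per cell cannot be told apart.

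By estimated fragments, the cytosolic genes were well covered and the mitochondrial genes, apart from Lars2, were not. Lars2 had many counts, but whether all of them come from its own transcript was not tested, as given below. On the TPM scale, which corrects for gene length, the median of the 20 cytosolic means was 43.7 in the young and 49.9 in the old basal cells, and 47.3 in the young and 54.6 in the old luminal ones. For the 15 mitochondrial genes without Lars2 it was 3.95, 3.47, 4.98 and 4.23 TPM in the same order. Behind a single value stood a median of 57.3 estimated fragments for cytosolic genes (5.92 to 355) and 5.25 for these mitochondrial genes (0 to 51.9). In 16 of their 180 values there was less than 1 fragment. A count of 0 fragments allows up to 3, which over a group comes to 2.27 CPM in the young and 0.865 in the old basal cells, and 1.22 in the young and 1.58 in the old luminal ones. These limits cover counting error only, since no molecular identifiers were used.

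Besides the leucine pair, 13 mitochondrial genes were set beside a cytosolic gene for the same amino acid, with Farsa standing for the cytosolic phenylalanine enzyme. Ears2 and Pars2, whose cytosolic counterpart is the joint gene Eprs, were left out of this comparison. The cytosolic gene had the higher mean TPM in 51 of the 52 pairs of gene and group, with a median ratio of 9.69. The exception was Iars, the cytosolic isoleucine enzyme, at 19.1 ± 2.54 TPM (SD, n = 3) against 25.4 ± 6.32 for Iars2 in young basal cells. The spreads of these last values lie close together. Exons of Iars2 overlap those of Rab3gap2 on the opposite strand over 2034 bases, and the strand setting of the counting is not given.

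The order of the levels was not the same in both cell types. Nars, the asparagine enzyme, was second in basal cells at 128.9 ± 12.02 TPM when young and 154.3 ± 11.1 when old. In luminal cells the second place belonged to Wars, at 187 ± 9.43 TPM at 3 months and 217.6 ± 50.7 at 24 months. Wars ranked 16 and 19 of 36 in young and old basal cells, at 25.7 ± 7.79 and 24.7 ± 5.46 TPM. The lowest means were those of Hars2, Pars2 and Wars2, at 0.403 ± 0.395, 1.58 ± 1.498 and 0.680 ± 1.18 TPM in young basal cells, which all lie below the limit for 0 fragments and do not differ beyond their spread.

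**Figure D1:**
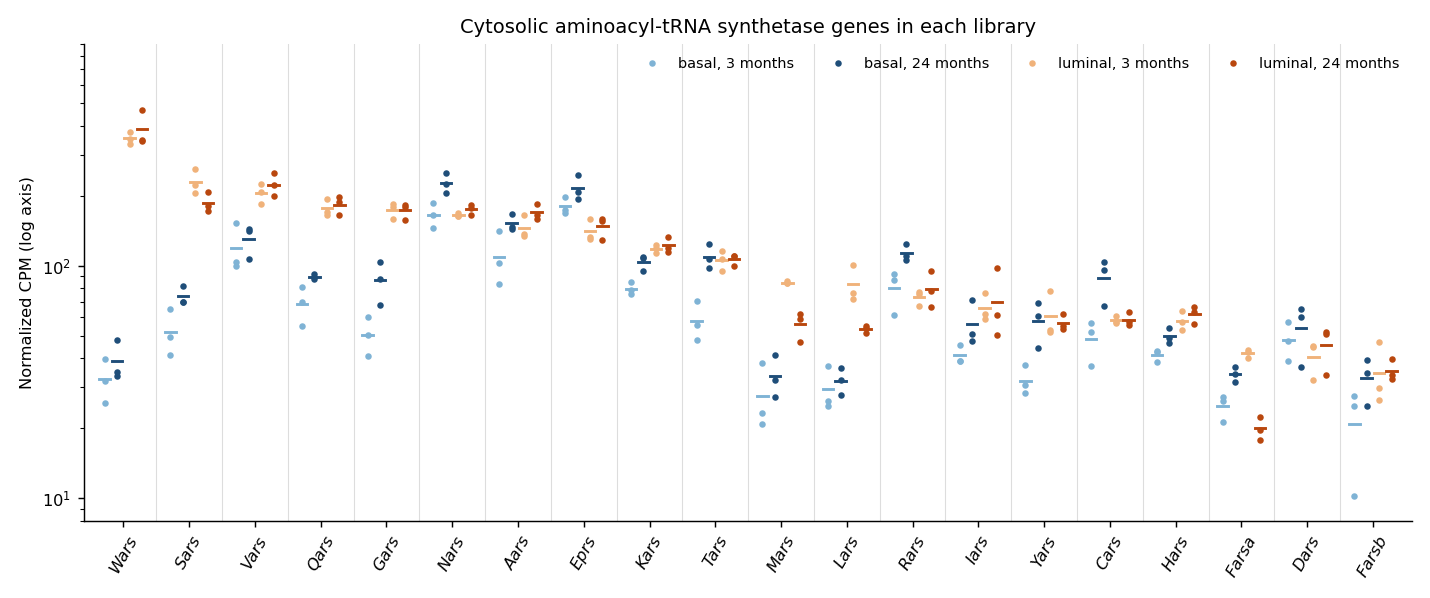
Normalized CPM (log axis) of the 20 cytosolic synthetase genes in each of the 12 libraries, with points for libraries and bars for group means (n = 3). Genes are ordered from the highest to the lowest young luminal mean. The 6 luminal values of Wars (335 to 469) stand far above its 6 basal values (25.7 to 47.9), and the 3 old luminal values of Farsa (17.9 to 22.4) lie below its 3 young luminal values (40.1 to 43.3).

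Lars2, the mitochondrial leucine enzyme, stood first of the 36 genes in all 4 groups, on TPM and on length-normalized CPM alike. Its mean was 659 ± 179.8 TPM in the young and 568 ± 82.9 in the old basal cells, and 551 ± 98.3 in the young and 453 ± 158.2 in the old luminal ones. By library its level was 1575, 1372 and 843 CPM in the young and 1462, 1227 and 1035 in the old basal cells, and 1279, 1761 and 1389 in the young and 1175, 787 and 1396 in the old luminal ones. The groups overlapped, and no contrast passed the test (adjusted p from edgeR of 0.487 at 3 months and 0.680 at 24 months between cell types). In 3 of the 4 groups the libraries stood in the same order for Lars2 as for Rn45s, the precursor of ribosomal RNA. Lars2 amounted to 12.3% to 12.4% of the Rn45s level in the young and 16.5% to 21.7% in the old basal libraries, and 8.81% to 11.1% in the young and 11.3% to 15.6% in the old luminal ones. Whether ribosomal sequence contributes to the Lars2 counts was not tested.

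**Figure D2:**
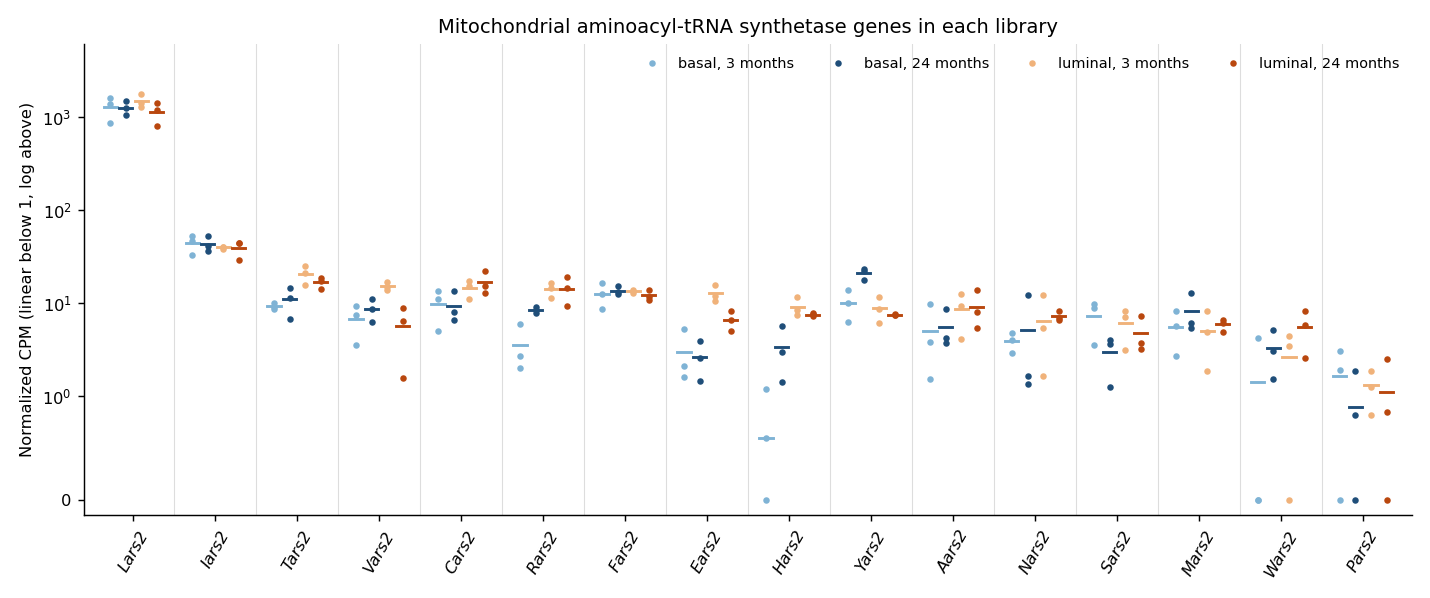
Normalized CPM of the 16 mitochondrial synthetase genes in each of the 12 libraries (axis linear below 1 and logarithmic above), with points for libraries and bars for group means (n = 3). Lars2 lies at 787 to 1761 CPM, far above the rest, and Hars2, Wars2 and Pars2 have libraries at 0.

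In young mice, luminal cells held more synthetase RNA than basal cells. Of the 36 genes, 17 were higher in luminal cells and 0 lower (edgeR quasi-likelihood test, adjusted p under 0.05), where 37.6% of the 14201 tested genes were called, 19% higher and 18.6% lower. Of these, 13 were cytosolic (Farsa, Gars, Hars, Iars, Kars, Lars, Mars, Qars, Sars, Tars, Vars, Wars and Yars) and 4 mitochondrial (Ears2, Hars2, Rars2 and Tars2). The 20 cytosolic genes summed to 1254 to 1345 CPM in young basal and 2368 to 2454 CPM in young luminal libraries. In 18 of the 36 genes every luminal library lay above every basal one and in 1 below, as in 28.5% and 23.1% of all tested genes. The cytosolic median log2 fold change was 0.74, beside 0.19 for all tested genes. On the TPM scale, which moved the median of all genes by -0.46, 9 members were called higher and Dars, Eprs, Nars and Rars lower. The calls of Farsa, Iars, Kars, Tars, Tars2, Vars, Yars and Hars were lost there. The share of higher among all called genes was 35.6% in place of 50.6%.

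Wars, at chr12:108860030-108894174 on the minus strand, showed the widest gap of the genes measured above the limit for 0 fragments. It stood at 32.1, 25.7 and 39.5 CPM in young basal and 335, 352 and 377 CPM in young luminal libraries. In old cells it stood at 33.6, 34.7 and 47.9 CPM in basal and 347, 343 and 469 CPM in luminal libraries. Every luminal library lay above every basal one, with no overlap at either age. The log2 fold change was 3.45 ± 0.20 (SE) at 3 months (adjusted p = 5.18e-09, edgeR) and 3.32 ± 0.20 at 24 months (adjusted p = 9.93e-09, edgeR).

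Sars, the cytosolic serine enzyme, came next. Its values were 49.3, 65.0 and 41.2 CPM in the young and 82.2, 69.7 and 70.1 in the old basal libraries, and 222, 259.6 and 204.9 in the young and 181.5, 207.8 and 171.7 in the old luminal ones. All luminal values exceeded all basal values, with log2 fold changes of 2.14 ± 0.17 at 3 months and 1.34 ± 0.17 at 24 months (adjusted p = 1.66e-07 and 1.71e-05, edgeR). Qars, which charges glutamine, read 69.6, 80.8 and 55.3 CPM in the young and 87.4, 92.4 and 89.7 in the old basal libraries, and 193.7, 165.8 and 170.1 in the young and 164.9, 187.5 and 197.8 in the old luminal ones. Its luminal libraries again lay wholly above its basal ones, by 1.36 ± 0.15 and 1.03 ± 0.15 on the log2 scale (adjusted p = 3.31e-06 and 5.36e-05, edgeR).

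Gars, which serves cytosol and mitochondria, lies at chr6:55038007-55079500. It measured 60.3, 50.2 and 40.7 CPM in the young and 88.1, 67.7 and 103.7 in the old basal libraries, and 183.5, 159.1 and 178.8 in the young and 182.4, 158.0 and 179.1 in the old luminal ones. The luminal values of the 2 ages overlapped, while the 3 old basal values all lay above the 3 young ones. The cell type difference was 1.79 ± 0.18 at 3 months and 1.00 ± 0.17 at 24 months on the log2 scale (adjusted p = 1.39e-06 and 0.000318, edgeR). Kars, the other gene of both compartments, showed a smaller gap. It read 84.8, 75.8 and 78.5 CPM in the young and 108.9, 95.1 and 107.5 in the old basal libraries, and 119.2, 122.5 and 113.6 in the young and 132.9, 119.4 and 114.6 in the old luminal ones. The groups did not overlap at either age, but only the 3 month difference of 0.57 ± 0.12 passed the test (adjusted p = 0.00171, against 0.24 ± 0.12 and 0.151 at 24 months, edgeR). On the TPM scale the 3 month value for Kars was 0.0872 (adjusted p = 0.601, limma).

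Lars and Mars, both in the multisynthetase complex, were higher in luminal cells at both ages. Lars, the cytosolic leucine enzyme, read 25.0, 26.2 and 36.9 CPM in the young and 27.8, 32.1 and 36.3 in the old basal libraries, and 76.3, 72.0 and 101.1 in the young and 51.2, 53.9 and 55.0 in the old luminal ones. Mars, the methionine enzyme that also charges the initiator tRNA, read 38.1, 23.3 and 20.8 CPM in the young and 27.1, 32.1 and 41.5 in the old basal libraries, and 83.9, 84.3 and 85.7 in the young and 46.8, 62.3 and 59.2 in the old luminal ones. For both genes the luminal libraries lay above the basal ones at each age, and the old luminal libraries below the young. Their log2 cell type differences at 3 months were 1.501 ± 0.21 for Lars (adjusted p = 4.17e-05, edgeR) and 1.63 ± 0.24 for Mars (adjusted p = 8.27e-05, edgeR). At 24 months they were 0.73 ± 0.21 and 0.74 ± 0.24 (adjusted p = 0.0117 and 0.0257, edgeR). Exons of Mars share 68 bases with Ddit3 on the opposite strand. The Lars call at 24 months was lost without old basal replicate 1 (adjusted p = 0.0523, edgeR), and the Mars call without any 1 of 4 libraries (adjusted p from 0.0595 to 0.101, edgeR). On the TPM scale neither 24 month call held, with Lars at 0.502 and Mars at 0.517 (adjusted p = 0.0945 and 0.0893, limma).

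The remaining cytosolic genes called at 3 months were Vars, Tars, Yars, Iars, Hars and Farsa, with log2 differences of 0.79, 0.87, 0.93, 0.67, 0.49 and 0.75. Vars, the valine enzyme, read 152.6, 99.9 and 103.8 CPM in the young and 107.3, 140.7 and 144.6 in the old basal libraries, and 184.3, 206.8 and 224.6 in the young and 221.9, 249.6 and 198.8 in the old luminal ones. Its luminal values lay above its basal values at both ages. The Iars and Hars calls were the least secure of these. The Iars call was lost without any 1 of 7 libraries (adjusted p up to 0.145, edgeR), the Hars call without any 1 of 8 (up to 0.121), and on the TPM scale the Hars difference changed sign to -0.0071. Hars and Hars2 lie head to head and share 195 exonic bases on opposite strands.

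In the multisynthetase complex, 5 of the 8 genes were higher in luminal cells at 3 months (Iars, Kars, Lars, Mars and Qars), as were 8 of the 12 other cytosolic genes. Among all tested genes the shares were 19% higher and 18.6% lower. Eprs, a joint enzyme for glutamate and proline in the same complex, had its values in the opposite direction. It read 173.8, 197.7 and 168.8 CPM in the young and 194.0, 206.7 and 245.8 in the old basal libraries, and 159.1, 130.2 and 133.0 in the young and 155.4, 129.6 and 158.7 in the old luminal ones. Every basal library lay above every luminal library of its age, with log2 differences of -0.36 ± 0.14 at 3 months (adjusted p = 0.0555, edgeR) and -0.54 ± 0.14 at 24 months (adjusted p = 0.00598, edgeR). The 3 month difference passed the threshold under DESeq2 (adjusted p = 0.0323), and the 24 month call was lost without old luminal replicate 2 (adjusted p = 0.0585, edgeR). The next members in this direction at 3 months were Dars, Rars, Iars2 and Yars2, with log2 differences of -0.24, -0.13, -0.14 and -0.20 and adjusted p of 0.515 to 0.785 (edgeR). Dars, the aspartate enzyme, read 57.0, 39.1 and 47.7 CPM in young basal and 44.7, 45.1 and 32.2 in young luminal libraries, which overlap. Rars, for arginine, read 86.6, 92.5 and 61.3 against 75.6, 66.8 and 77.4 CPM, also overlapping, as did Iars2 at 46.6, 32.9 and 51.8 against 40.3, 40.3 and 38.3 CPM.

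Mitochondrial genes gave 4 calls among 16 at 3 months, all higher in luminal cells and all on few fragments. Of all tested genes, 19% were called higher and 18.6% lower. Tars2, for threonine, read 9.04, 8.61 and 10.1 CPM in young basal and 21.1, 15.7 and 25.2 CPM in young luminal libraries. Rars2, for arginine, read 5.98, 2.71 and 2.02 against 11.3, 16.5 and 14.4 CPM, and Ears2, for glutamate, 5.27, 2.13 and 1.59 against 10.6, 15.8 and 11.8 CPM. None of these groups overlapped. The log2 differences were 1.16 ± 0.41, 1.97 ± 0.55 and 2.08 ± 0.75 (adjusted p = 0.0358, 0.0105 and 0.0406, edgeR). Hars2 was at 0, 1.199 and 0.602 CPM in young basal libraries, under the limit for 0 fragments, and at 11.5, 8.39 and 7.39 CPM in young luminal ones, so no fold is given. Without young luminal replicate 2 the Rars2 call was lost (adjusted p = 0.0525, edgeR), and without young luminal replicate 1 the Hars2 call (adjusted p = 0.0597, edgeR). The Ears2 and Tars2 calls were each lost without any 1 of 10 libraries (adjusted p up to 0.158 and 0.141, edgeR). The number of members called at 3 months fell from 17 to 11 without young luminal replicate 2.

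At 24 months the genes divided. In luminal cells 7 were higher (Gars, Lars, Mars, Qars, Sars, Vars and Wars) and 6 were lower (Cars, Eprs, Farsa, Nars, Rars and Yars2), where 35.4% of all tested genes were called, 15.7% higher and 19.7% lower. The 7 genes that were higher at 24 months were all among the 17 that were higher at 3 months. How many of all tested genes recur in this way was not counted. These comparisons share no library, but they share the scaling, filter and spread of a single fit. The cytosolic median was 0.19, beside 0.00 for all tested genes. In 12 of the 36 genes every luminal library lay above every basal one and in 6 below, as in 25.2% and 27.9% of all tested genes. Cytosolic sums were 1666 to 1931 CPM in old basal and 2330 to 2549 CPM in old luminal libraries. On the TPM scale these sums overlapped, at 1068 to 1225 in old basal and 1107 to 1439 in old luminal libraries. There 5 members were called higher and 6 lower (limma), and the cytosolic median was -0.01, beside -0.15 for all tested genes. With DESeq2 size factors the median of all genes moved by 0.13, and 9 members were called higher and 3 lower, with Hars and Kars added (log2 0.45 and 0.37) and Cars, Nars and Rars lost. The count of 13 fell to 7 without old basal replicate 1 and to 6 without old luminal replicate 2.

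**Figure D3:**
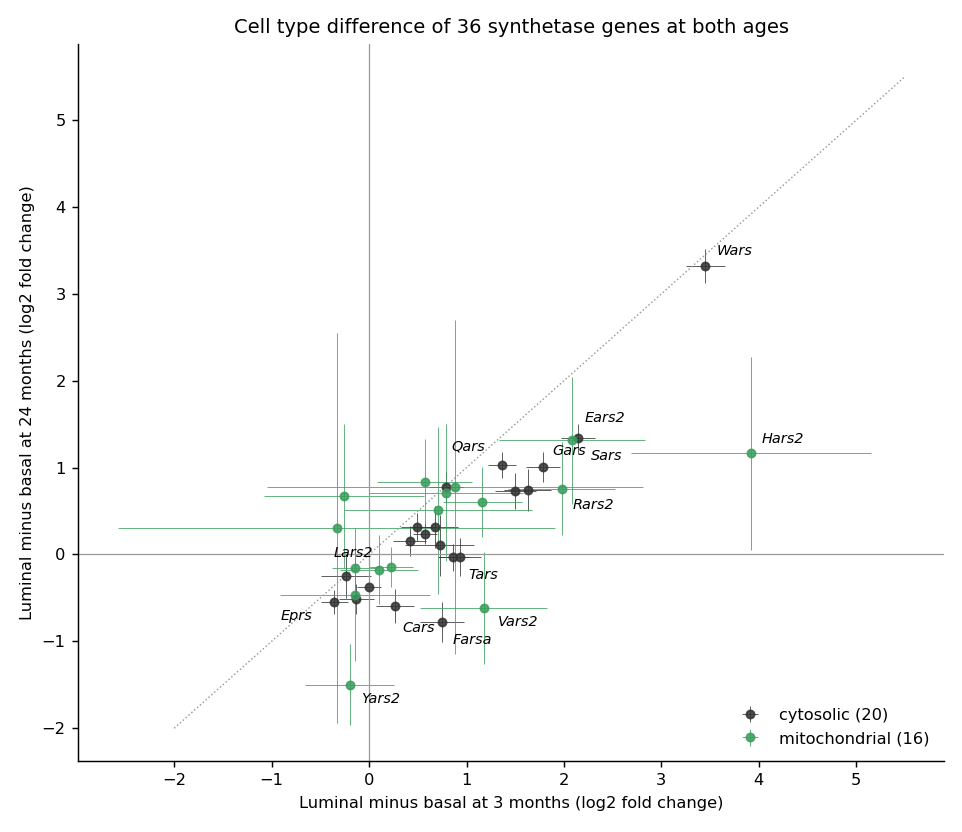
Log2 fold change of luminal against basal cells at 3 months (x axis) and at 24 months (y axis) for the 36 genes, with bars of 1 SE and a dotted line of equal values. Wars lies near the line at 3.45 and 3.32, and Farsa lies at 0.75 and -0.78.

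Among the genes that were lower in old luminal cells, Yars2, the mitochondrial tyrosine enzyme, differed most. Its values were 23.3, 22.3 and 17.9 CPM in old basal and 7.61, 7.38 and 7.45 CPM in old luminal libraries, a log2 difference of -1.497 ± 0.46 (adjusted p = 0.0201, edgeR). At 3 months its libraries overlapped, at 13.8, 10.1 and 6.24 CPM in basal and 8.56, 6.06 and 11.6 CPM in luminal cells. Nars, for asparagine, read 250.8, 205.0 and 224.1 CPM in old basal and 182.3, 165.4 and 177.4 CPM in old luminal libraries, against 164.8, 185.8 and 145.8 and 163.8, 168.2 and 163.9 CPM in the young groups. Its old groups did not overlap and its young groups did. The Nars difference of -0.37 ± 0.12 (adjusted p = 0.0269, edgeR) was 1.29-fold in size and was lost under DESeq2 (adjusted p = 0.0847) and without any 1 of 4 libraries (adjusted p up to 0.153, edgeR). Rars stood at 110.6, 106.0 and 124.1 CPM in old basal and 94.5, 66.3 and 77.9 CPM in old luminal libraries, without overlap. Its difference of -0.51 ± 0.18 (adjusted p = 0.0353, edgeR) and that of Cars, -0.60 ± 0.20 (adjusted p = 0.0284, edgeR), failed the threshold without any 1 of 5 and of 4 libraries (adjusted p up to 0.209 and 0.134, edgeR). The Yars2 call was likewise lost without any 1 of 5 libraries (adjusted p up to 0.0840, edgeR).

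With age, basal cells gained synthetase RNA in 3 genes. Cars, Gars and Tars rose and 0 fell, where 1.24% of all tested genes were called, 1.01% higher and 0.225% lower. The fitted value was above 0 for all 20 cytosolic genes, a count that held under every count-based scaling tried and was 16 of 20 on the TPM scale. Their median was 0.45, beside 0.09 for all tested genes. In 16 of the 36 genes, 13 of them cytosolic, every old basal library lay above every young one, and in 0 below, as in 13.4% and 5.67% of all tested genes. The cytosolic sum was 1254 to 1345 CPM in young and 1666 to 1931 CPM in old basal libraries, and 927 to 949 and 1068 to 1225 on the TPM scale, without overlap on either. Of the 20 cytosolic genes, 10 had an unadjusted p under 0.05, as did 14.2% of all tested genes. The 16 mitochondrial genes gave 0 calls with edgeR and 0 on fragment-equivalent counts, and 2 had an unadjusted p under 0.05, a share near that of all genes.

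Tars, the cytosolic threonine enzyme at chr15:11382301-11399665, had the firmest of these changes. It read 70.4, 48.1 and 55.7 CPM in young basal and 107.0, 97.3 and 124.3 CPM in old basal libraries, against 94.7, 115.5 and 107.2 and 110.4, 99.7 and 110.6 CPM in young and old luminal ones. On CPM the old basal values thus reached the level that luminal libraries had at both ages. On the TPM scale they were 68.1 to 86.5, above the young luminal libraries (52.3 to 64.8) and overlapping the old luminal ones (52.1 to 70.9). The log2 rise of Tars in basal cells was 0.92 ± 0.16 (adjusted p = 0.0113, edgeR). Without old basal replicate 1 or 3 the adjusted p was 0.0607 or 0.0523 (edgeR).

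Cars, the cysteine enzyme at chr7:143557230-143600090, read 37.0, 56.6 and 51.7 CPM in young basal and 95.5, 67.1 and 103.5 CPM in old basal libraries. In luminal cells it read 56.4, 57.1 and 61.0 CPM when young and 57.0, 55.6 and 63.4 CPM when old. All 3 old basal libraries thus lay above the other 9. The rise in basal cells was 0.87 ± 0.20 on the log2 scale (adjusted p = 0.0476, edgeR), and that of Gars, whose libraries are given above, 0.78 ± 0.17 (adjusted p = 0.0438, edgeR). These calls stood close to the threshold. Without old basal replicate 1 or 3 no member was called, and without any 1 of the 6 luminal libraries, which enter only through the shared spread, scaling and filter, 1 was. With DESeq2 size factors 1 was called, with limma on log2 TPM 0, with the basal libraries alone 0, and with DESeq2 itself 5, adding Nars and Yars (adjusted p = 0.0440 and 0.0161).

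Yars, the tyrosine enzyme, was the nearest gene that edgeR did not call. It read 28.3, 37.4 and 30.5 CPM in young basal and 60.5, 44.4 and 69.1 CPM in old basal libraries, without overlap (log2 0.86 ± 0.22, adjusted p = 0.0703, edgeR).

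Depth and marker levels moved with age in basal cells. Old basal libraries held 16 to 38 reads per fragment and young ones 39 to 73. On fragment-equivalent counts, which divide each library by its reads per fragment, the 3 genes kept their calls. This division leaves the difference in the number of fragments between young and old libraries in place. Smooth muscle markers summed to 223 to 269 CPM in young and 49.0 to 120 CPM in old basal libraries. Basal markers summed to 15408 to 16810 CPM in young and 13789 to 14414 CPM in old ones, luminal markers to 4758 to 5114 and 5651 to 6020 CPM, and macrophage markers to 12.5 to 24.8 and 26.4 to 44.8 CPM. Young and old basal libraries did not overlap in any of these 4 sums, and Csf1r and Lyz2, defining genes of macrophages, were below 1 fragment in both groups. Fibroblast markers summed to 1334 to 1645 CPM in young and 1249 to 1366 CPM in old basal libraries, which overlap. Of these 7 genes, 6 had a log2 value below 0 with age and 1 was called lower, beside 0.225% of all tested genes. Their median was -1.70, beside 0.09 for all tested genes, and Lum was below 1 fragment in old basal libraries. The part of these markers in the result was not tested. The share of higher among all genes called was 81.8% here, 61.6% with DESeq2 size factors, which moved the median of all genes by -0.098, 51.8% on fragment-equivalent counts and 54.8% on the TPM scale, where the last 2 also change the counts or the model. Relative to the median of all genes, the cytosolic median stood 0.36 higher with TMM, 0.35 higher with DESeq2 size factors and on fragment-equivalent counts, and 0.26 higher on the TPM scale.

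**Figure D4:**
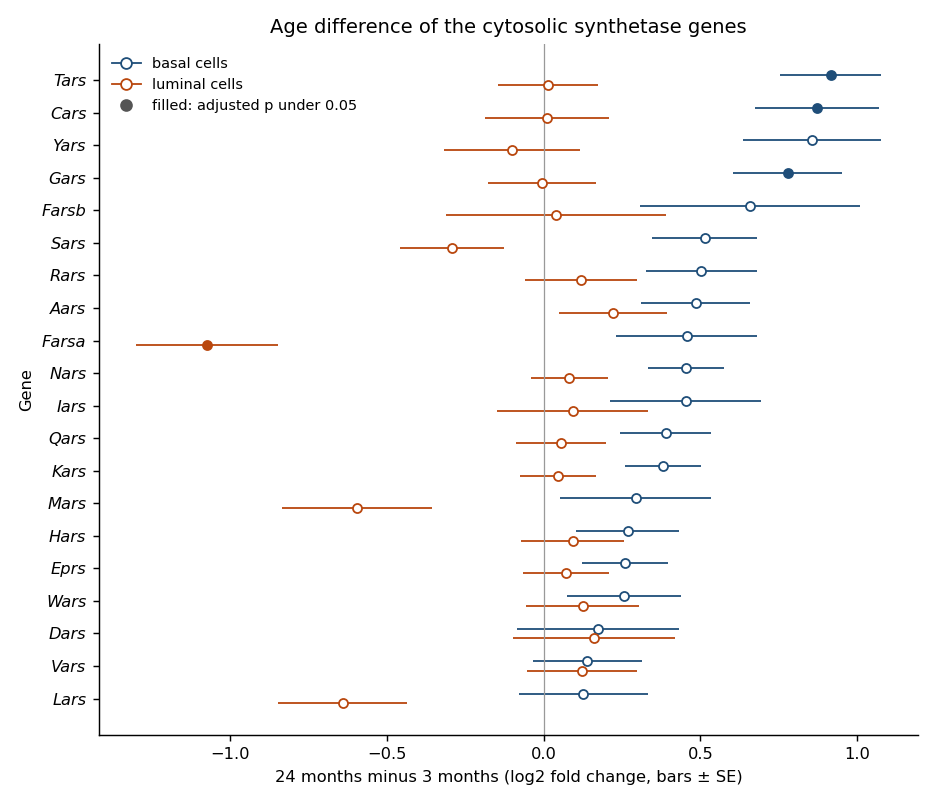
Log2 fold change from 3 to 24 months for the 20 cytosolic genes in basal (blue) and luminal (orange) cells, with bars of 1 SE and filled points at an adjusted p under 0.05. All 20 basal values lie above 0, and of the luminal values that of Farsa (-1.07) is the farthest from 0.

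In luminal cells, Farsa fell with age and the other 35 genes did not pass the test. The background was 1.65% of tested genes, 1.26% higher and 0.394% lower. The cytosolic median was 0.05, beside -0.02 for all genes, and the cytosolic sums of young (2368 to 2454 CPM) and old libraries (2330 to 2549 CPM) overlapped. After Farsa the smallest adjusted p values belonged to Lars and Mars, with log2 values of -0.64 ± 0.21 and -0.59 ± 0.24 (adjusted p = 0.182 and 0.348, edgeR), although their young and old luminal libraries did not overlap. Lars, Mars, Farsa, Ears2 and Vars2 were the 5 genes with every old below every young luminal library, where 9.6% of all tested genes had this order. None had the reverse order, which 8.71% of all tested genes had. Vars2, the mitochondrial valine enzyme, read 14.0, 16.9 and 14.95 CPM in young and 1.59, 8.93 and 6.36 CPM in old luminal libraries (adjusted p = 0.447, edgeR).

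Farsa and Farsb encode the alpha and beta subunits of 1 enzyme, the cytosolic phenylalanyl-tRNA synthetase, which works as a tetramer of both. Farsa lies at chr8:84856989-84869257 and Farsb at chr1:78417975-78488897. Farsa read 27.4, 26.2 and 21.2 CPM in the young and 34.2, 31.7 and 36.7 in the old basal libraries, and 40.1, 43.3 and 42.4 in the young and 19.6, 17.9 and 22.4 in the old luminal ones. Young luminal cells thus had the highest CPM values and old luminal cells values below all of old basal cells. On the TPM scale young luminal libraries, at 32.6, 35.8 and 34.9, overlapped with old basal ones, at 33.3, 32.7 and 37.6. The fall in luminal cells was 1.07 on the log2 scale, a 2.102-fold change (SE 0.23, adjusted p = 0.0272, edgeR). In basal cells the value was 0.46 ± 0.22 (adjusted p = 0.376, edgeR). Luminal against basal, Farsa was higher at 3 months (0.75 ± 0.23, adjusted p = 0.0161, edgeR) and lower at 24 months (-0.78 ± 0.23, adjusted p = 0.0137, edgeR).

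Farsb did not follow this pattern. It read 27.4, 10.3 and 24.8 CPM in the young and 34.4, 39.3 and 24.8 in the old basal libraries, and 29.9, 46.9 and 26.5 in the young and 32.6, 33.7 and 39.9 in the old luminal ones. The groups overlapped in each comparison, and no contrast was called (adjusted p from 0.122 to 1.0, edgeR). In luminal cells its age difference was 0.04 ± 0.35. The ratio of Farsa to Farsb in TPM was 1.55, 1.07 and 1.85 in young luminal libraries and 0.711, 0.611 and 0.647 in old luminal ones. In basal cells it was 1.15, 2.95 and 0.985 when young and 1.17, 0.930 and 1.71 when old. The 3 old luminal ratios were the lowest of the 12. The difference between the subunits was not tested. Exons of Farsb share 248 bases with Sgpp2 on the opposite strand.

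**Figure D5:**
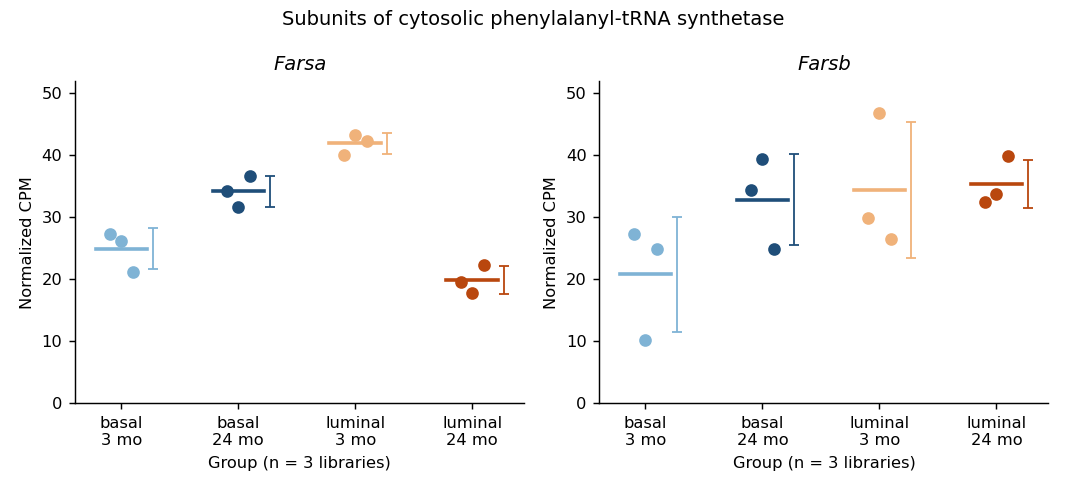
Normalized CPM of Farsa (left) and Farsb (right) by group, with points for the 3 libraries, thick bars for the mean and whiskers for 1 SD. Farsa has a mean of 41.9 in young and 19.9 in old luminal libraries, while the 2 luminal means of Farsb are 34.4 and 35.4.

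The age responses of luminal and basal cells differed for Farsa alone (log2 -1.53 ± 0.32, adjusted p = 0.0397, edgeR), where 0.817% of tested genes were called, 0.423% higher and 0.394% lower. This contrast is also the change of the luminal against basal difference between the ages, and it uses the same 12 libraries as the other 4. The fitted value was below 0 for all 20 cytosolic genes, 18 of 20 with DESeq2 size factors, on fragment-equivalent counts or without a filter, and 15 of 20 on the TPM scale. Their median was -0.38, beside -0.13 for all genes. Tars (-0.90 ± 0.23), Sars (-0.81 ± 0.23) and Gars (-0.78 ± 0.24) came next, with adjusted p of 0.0976, 0.172 and 0.201 (edgeR). DESeq2 called Sars and Tars as well (adjusted p = 0.0498 and 0.0232). The share of higher among all genes called was 51.7%, 61.9% with DESeq2 size factors, 77.4% on fragment-equivalent counts and 68.9% on the TPM scale.

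The Farsa calls rested on few fragments, and each was lost without some single libraries. Its estimated fragments numbered 31.8 to 37.3 in young and 10.9 to 17.0 in old luminal libraries. The fall in luminal cells held with DESeq2, limma on log2 TPM, fragment-equivalent counts, the luminal libraries alone and the replicate block. It was lost without any 1 of young luminal replicates 1, 2 and 3, old luminal replicates 1 and 2 and old basal replicate 1 (adjusted p = 0.0731, 0.102, 0.0982, 0.0900, 0.116 and 0.0524, edgeR). The difference of the age responses was lost in 12 of 18 alternatives. These were DESeq2 size factors in edgeR, no filter and the replicate block (adjusted p = 0.0530, 0.0739 and 0.0733, edgeR), and leaving out any 1 of 9 libraries (adjusted p from 0.0610 to 0.134, edgeR). It was kept without young basal replicate 1 or 2, where Tars or Sars joined it, and without old luminal replicate 3. The 3 month difference was lost without young basal replicate 3 or young luminal replicate 2 (adjusted p = 0.0530 and 0.0804, edgeR) and on the TPM scale, where it was 0.256 (adjusted p = 0.262, limma). The 24 month one was lost without old basal replicate 3 or old luminal replicate 2 (adjusted p = 0.0572 and 0.0757, edgeR). Fibroblast markers summed to 193 to 401 CPM in young and 52.4 to 131 CPM in old luminal libraries, basal markers to 625 to 734 and 843 to 1329 CPM, luminal markers to 14973 to 16847 and 17790 to 18919 CPM, smooth muscle markers to 66.2 to 116 and 6.17 to 57.2 CPM, and endothelium markers to 1.66 to 3.88 and 4.20 to 6.79 CPM. Their part in the Farsa values was not tested.

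Other genes of tRNA charging and of the amino acid response were followed in lists. The scaffolds of the multisynthetase complex gave 1 call, Aimp1 higher in luminal cells at 24 months (0.74 ± 0.27, adjusted p = 0.0422, edgeR), and Aimp2 and Eef1e1 gave none. Of 5 measured genes for other steps of mitochondrial charging, Gatc, a subunit of the enzyme that makes glutaminyl-tRNA in mitochondria, was higher in luminal cells at 3 months (21.9 against 4.99 CPM, log2 2.13 ± 0.46). Aarsd1, a proofreading enzyme for alanine tRNA, was higher in luminal cells at both ages (1.04 ± 0.35 and 1.35 ± 0.35). Of 7 cytosolic elongation factors, 0 were higher in luminal cells, while Eef1b2 and Eif5a were lower at both ages (-0.32 and -0.42 at 3 months, -0.69 and -0.92 at 24 months) and Eef1g at 24 months (-0.51). Of 9 mitochondrial translation factors, Gfm1 was lower (-1.199 ± 0.38) and Tsfm higher at 3 months, the latter at 7.06 CPM against 0.174 CPM, which is under the limit for 0 fragments. In none of these lists was a gene called in an age comparison. Age calls among all tested genes came to 1.65% for luminal and 1.24% for basal cells. With 3 to 9 tested genes per list, 0 age calls do not set the lists apart from all genes. Between the cell types, upward calls in luminal cells took 19% of all tested genes at 3 months and 15.7% at 24 months. Downward calls took 18.6% and 19.7%. The counts of these lists were not tested against such shares.

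The amino acid response list split in both directions between the cell types. Of its 33 tested genes, luminal cells had 12 higher and 9 lower at 3 months, and 11 higher and 10 lower at 24 months, where 19% and 18.6% of all tested genes were called at 3 months and 15.7% and 19.7% at 24 months. Asns, which makes asparagine, stood at 127.4 CPM in luminal and 29.7 CPM in basal cells at 3 months (log2 2.101 ± 0.29), and Eif4ebp1, an inhibitor of translation initiation, at 158.6 and 19.2 CPM (3.05 ± 0.19). The mitochondrial proline enzyme gene Aldh18a1 and Gpt2, an alanine transaminase, were higher by 2.46 and 2.41. Atf4 itself was lower in luminal cells (-0.55 ± 0.11 and -0.65 ± 0.11 at the 2 ages), as were its partner Cebpb (-2.62 and -1.79) and the amino acid transporters Slc7a1 (-2.01 and -1.93) and Slc38a2 (-1.85 and -2.23). At 3 months Atf4 RNA was lower in luminal cells, where the 17 called synthetase genes were higher. A link between them was not tested.

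With age in basal cells, 2 of these 33 genes rose and 0 fell, where 1.01% and 0.225% of all tested genes did. Atf4 rose from 758.7 to 1059 CPM (log2 0.48 ± 0.11, adjusted p = 0.0438, edgeR). Chac1, which breaks down glutathione, stood at 0.349 CPM in young cells, under the limit for 0 fragments, and at 9.06 CPM in old cells, so no fold is given. The median of the list was 0.29, beside 0.09 for all genes. In luminal cells Cebpb rose (0.84 ± 0.12) and Eif4ebp1 fell (by 0.87 on the log2 scale). Atf4 was at 0.38 ± 0.11 there (adjusted p = 0.110, edgeR). Among the 4 kinases that phosphorylate eIF2 alpha, Eif2ak3, the kinase of the endoplasmic reticulum, was higher in luminal cells by 3.03 at both ages. Eif2ak4, which senses uncharged tRNA, was lower by -1.59 and -1.17, and none of the 4 was called with age.

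Interferon-stimulated genes were set beside Wars. At 3 months 2 of 20 were higher in luminal cells, Irf9 (0.81 ± 0.22) and Tap1 (1.13 ± 0.30), and 0 lower, where 19% of all tested genes were higher and 18.6% lower. At 24 months 7 of 20 were higher and 0 lower, where 15.7% of all tested genes were higher, among them Irgm1 (2.01 ± 0.25), Tap1 (2.43 ± 0.32) and Psmb8 (2.32 ± 0.44). The list's median was 0.71 at 3 months and 1.28 at 24 months, beside 0.19 and 0.00 for all tested genes. Psmb9, also called at 24 months, stood at 5.30 CPM in luminal and 0.0308 CPM in basal cells, which is under the limit for 0 fragments, so no fold is given. With age in luminal cells Irgm1 was the 1 called gene of the 20 (1.11 ± 0.25, adjusted p = 0.0349, edgeR), and Wars was at 0.12 ± 0.18 (adjusted p = 0.998, edgeR).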

How the data were processed

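RNA of sorted cells was made into libraries with a stranded mRNA kit, per the labels' protocols. Reads were handled with bcl2fastq 2.17, Bowtie2 2.1.0 and RSEM 1.2.15 on mm10, per the submitters' processing notes. No strand setting of the counting is stated in these sources. Per the file headers, the deposited tables give each gene an expected count, a TPM and an FPKM value. FPKM were not used here.

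Expected counts were rounded to whole numbers. For the 36 genes the deposited expected counts were already whole except for Iars in 2 libraries and Wars2 in 9. Genes were kept with filterByExpr (minimum count 10, minimum total 15), which left 14201, and all 36 passed. All 12 libraries entered a single quasi-likelihood fit in edgeR 4.0.16, scaled by TMM, with 1 coefficient per group and 5 contrasts. Benjamini-Hochberg adjustment ran over the 14201 genes of each contrast, with calls at an adjusted p under 0.05. Normalized CPM use the same factors. The authors' TPM served for levels between genes and, as log2(TPM + 1) with limma 3.58.1, as an alternative. Distinct fragments were estimated from genes with at least 8 reads in 1 library, reads in at most 3 others and a length over 500 bases. These genes also had no reads in the other libraries of the same group. Their median count in a library was taken as the reads of 1 fragment. Where such genes held more than 1 fragment, the fragment numbers given here are too low. Fragment-equivalent counts (minimum count 3, minimum total 10, 11201 genes tested) lowered the common biological coefficient of variation from 0.797 to 0.116. Further alternatives were DESeq2 1.42.0, its size factors in edgeR, no filter, the replicate number as a block, the compared groups alone and leaving out each library. The procedure was tested on simulated data. Coordinates are of GRCm38. The Aars promoter windows are not reported here. No 2 libraries held identical values.

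The members, lists and tests were chosen with earlier results of these data known. Members are given by library if they were called in an age comparison or in the difference of the age responses, if they were among the 5 smallest adjusted p values of a direction between cell types, or if they were Gars, Kars, Lars2, Wars, Farsa, Farsb, Eprs or Mars. Other members named with their values were chosen after these were seen. Other lists name up to 4 called genes per direction. The lists also held markers of endothelium (1.66 to 50.6 CPM in sum), macrophages (12.5 to 44.8), T cells (0 to 0.978), B cells (0 to 2.66) and erythroid cells (1.04 to 26.9).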

Additional observations from a re-analysis of the deposited data

Results flagged for a closer look

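Farsa was singled out because its age responses in the 2 cell types differed by a test of the difference itself. The log2 value of luminal minus basal age response was -1.53 (SE 0.32, adjusted p = 0.0397, edgeR), with luminal cells at -1.07 and basal cells at 0.46. All 3 old luminal libraries lay below all 3 young ones, and all 3 old basal libraries lay above all 3 young ones. No other of the 36 genes met this test with edgeR on the counts as deposited. The difference was lost in 12 of 18 alternatives, among them DESeq2 size factors in edgeR, no filter on low counts and the replicate block (adjusted p = 0.0530, 0.0739 and 0.0733, edgeR), and its value ranged from -1.62 to -1.21 over the 18.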

How the results depend on the processing

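Of the 17 calls at 3 months and the 13 at 24 months, 6 (Gars, Lars, Mars, Qars, Sars and Wars) and 5 (Gars, Qars, Sars, Vars and Wars) held under all 19 alternatives (18 for the difference), while 0 of the 1 in luminal age, 3 in basal age and 1 in the difference of the age responses did. The 1 change of sign was Hars at 3 months with limma on log2 TPM (-0.0071). Without 1 library the number of members called ranged from 11 to 17 at 3 months, 6 to 13 at 24 months, 0 to 1 in luminal age, 0 to 3 in basal age and 0 to 2 in the difference. For basal age it was 1 with DESeq2 size factors in edgeR, 5 with DESeq2, 0 with limma on log2 TPM and 0 with the compared groups alone. For the difference it was 0 with DESeq2 size factors in edgeR, 0 without a filter, 0 with the replicate block and 3 with DESeq2, and the compared groups alone give no such fit. The cause of these changes was not tested. The replicate number as a block gave 15, 13, 1, 2 and 0 calls in the 5 contrasts. Over 6270 genes, same-numbered libraries of the 2 cell types deviated together by r = -0.0199 to 0.0518 at 3 months and 0.0549 to 0.159 at 24 months. In the age comparisons r was -0.0967 to 0.0706. In the cell type comparison at 24 months alone each library correlated best with its own number. The main fit did not pair libraries by number, and these values do not settle whether the 24 month libraries are paired. Depth limits the mitochondrial genes most, at a median of 5.25 fragments per value.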
